A study of Mus musculus with 35 samples.

Results

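The genes described here were 35 genes of glycolysis, the pentose phosphate pathway and the first steps of glycogen synthesis, chosen by symbol for their place in these pathways. The rule names no measured value, but the choice was made with earlier results of these data known. Comparisons of these genes with all genes are therefore descriptive. They were found by gene identifier in the count data of all 35 libraries, as 35 of 48709 genes. All 35 passed the filter on low counts that left 13819 genes for testing. Glycolysis splits glucose into pyruvate in the cytosol and yields ATP, and lactate dehydrogenase can then turn pyruvate into lactate while restoring NAD+. The pentose phosphate pathway branches off at glucose 6-phosphate, where its oxidative arm makes NADPH and its non-oxidative arm makes ribose 5-phosphate for nucleotides. Activated T cells are known for a high rate of glucose uptake and lactate release, and IL-2 is known to sustain expression of glycolytic enzymes in CTLs.

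The libraries came from OT-I CTLs, that is CD8+ T cells from the spleens of mice carrying a transgenic T-cell receptor for an ovalbumin peptide. According to the methods of the study, such CTLs were primed by antibodies against CD3 and CD28 in IL-2 and were then expanded in 200 IU/mL IL-2, so all 7 groups share the receptor, the priming and the earlier exposure to the cytokine. Cells were collected at the start (0 h) or after culture for 24 h, in which medium of pH 7.4, 7 or 6.6 either lacked IL-2 or held 200 IU/mL of murine IL-2. Each group had 5 biological replicates. The medium was acidified with HCl. All cells carry a single receptor specificity and were primed in vitro, which limits them as a model of T cells in a tumor. The labels give neither the age of the mice nor whether each replicate came from a separate mouse, so p-values measure the spread between these samples.

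Total counts on genes ranged from 16721319 to 34033340 per library, with a median of 24730020. All 8 markers of CD8+ T cells examined were detected in every library, with Cd8a between 674 and 1596 CPM, the normalized counts scaled to the library total. Summed, they ranged from 12816 to 14875 CPM at pH 7.4 and from 8764 to 9649 at pH 6.6 with IL-2, and from 7129.5 to 7651 and 7978 to 8989.8 without. Gzmb, the granzyme B gene among them, had means of 7796, 845, 124 and 86.5 CPM in these 4 groups. With IL-2 the mean of Prf1 was also lower at pH 6.6, 92.7 against 380 CPM at pH 7.4. Those of Ptprc (5265 against 2948), Cd3e (581 against 411), Cd8a (1046 against 938) and Cd8b1 (270 against 255) were higher. Cd3g (536 against 538) and Lck (645 against 662) differed little. The lower sum in acid with IL-2 thus came from Gzmb and Prf1. The 13 markers of other cell types summed to 9.27 to 96.6 CPM per library, of which most came from Klrb1c, while Ms4a1, Siglech and Hbb-bs were at 0 in all 35 libraries and Cd4 reached 2.48. That sum was lowest at pH 6.6 without IL-2 (9.27 to 13.8) and highest at 0 h (84.5 to 96.6), and it was 43.7 to 47.0 at pH 7.4 and 20.6 to 36.2 at pH 6.6 with IL-2. It moved with several results below, as did Gzmb, and their part in them was not tested. Reads outside genes made up 3.91% to 5.18% per library at pH 7.4 and 7.34% to 8.83% at pH 6.6 with IL-2, 7.70% to 10.2% and 6.47% to 9.19% without, and 2.58% to 5.68% at 0 h. This share differed without overlap between the acid and neutral libraries with IL-2, and its part in the results was not tested either. Replicates differed in the glycolytic genes. With IL-2 at pH 7.4 replicate 1 was the lowest of 5 replicates for 27 of the 35 genes (77.1%, against 28.9% of all genes tested), and at pH 7 for 22 (62.9%, against 26.7%), while replicate 5 at pH 7.4 was the highest for 28 (80%, against 26.7%). Replicate 3 was the lowest for 19 genes at 0 h (54.3%, against 14.96%) and for 18 at pH 6.6 with IL-2 (51.4%, against 21.6%). Over 12 comparisons, or 420 values, leaving out replicate 1 changed 31 calls, and leaving out another replicate changed 22 to 27. In bulk RNA, fewer cells of a type and less RNA per cell cannot be told apart.

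The promoters of 6 genes that illustrate the different responses described below are shown for their sequence, as the 250 bases before the annotated start (RefSeq, GRCm38.p6), 5′ to 3′ on the strand of the gene. Capitals mark every ACGTG on either strand. All 6 windows shown hold it, whereas only 13 of the 34 genes with a window do. This pentamer is the core of the hypoxia response element and lies within CACGTG, the E-box bound by MYC, which contains it on both strands. The windows were those of the hexokinase gene Hk2 (chr6:82774455-82774704, minus strand), the lactate dehydrogenase gene Ldha (chr7:46845554-46845803, plus strand), the phosphoglycerate mutase gene Pgam1 (chr19:41911621-41911870, plus strand), the aldolase gene Aldoa (chr7:126799255-126799504, minus strand), the phosphoglycerate kinase gene Pgk1 (chrX:106186850-106187099, plus strand) and the bifunctional regulator gene Pfkfb2 (chr1:130715822-130716071, minus strand). Hk2, Ldha and Pgam1 fell strongly in acid with IL-2, Aldoa and Pgk1 rose in acid without IL-2, and Pfkfb2 was called higher in acid with IL-2. Where several starts are annotated, as for Ldha, Aldoa and Pfkfb2, the window with the most ACGTG is shown. In Aldoa 2 overlapping windows held 1 each, and that of the more upstream start was taken.
Hk2: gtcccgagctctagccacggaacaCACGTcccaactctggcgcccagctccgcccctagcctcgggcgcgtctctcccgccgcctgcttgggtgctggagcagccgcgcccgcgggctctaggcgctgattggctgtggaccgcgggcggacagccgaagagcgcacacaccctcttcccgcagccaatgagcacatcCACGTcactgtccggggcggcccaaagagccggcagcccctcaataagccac
Ldha: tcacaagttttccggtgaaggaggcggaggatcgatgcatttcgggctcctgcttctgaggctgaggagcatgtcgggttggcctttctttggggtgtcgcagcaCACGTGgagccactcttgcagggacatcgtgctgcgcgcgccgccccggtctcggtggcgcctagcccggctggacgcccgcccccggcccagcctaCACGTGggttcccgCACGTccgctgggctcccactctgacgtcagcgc
Pgam1: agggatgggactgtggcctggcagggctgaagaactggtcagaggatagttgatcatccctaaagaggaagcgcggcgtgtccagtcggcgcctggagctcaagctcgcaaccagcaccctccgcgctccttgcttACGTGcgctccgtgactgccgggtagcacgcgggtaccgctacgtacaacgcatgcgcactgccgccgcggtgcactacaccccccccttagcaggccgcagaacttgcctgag
Aldoa: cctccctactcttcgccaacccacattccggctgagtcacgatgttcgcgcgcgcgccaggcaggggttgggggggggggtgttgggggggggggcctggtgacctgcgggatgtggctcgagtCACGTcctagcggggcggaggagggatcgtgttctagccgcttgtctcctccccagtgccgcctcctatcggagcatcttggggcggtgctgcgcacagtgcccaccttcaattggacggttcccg
Pgk1: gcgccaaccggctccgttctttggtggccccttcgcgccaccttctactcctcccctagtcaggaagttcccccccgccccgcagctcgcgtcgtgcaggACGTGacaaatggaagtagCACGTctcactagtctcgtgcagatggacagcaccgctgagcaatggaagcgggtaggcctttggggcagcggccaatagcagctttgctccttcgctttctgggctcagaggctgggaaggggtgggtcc
Pfkfb2: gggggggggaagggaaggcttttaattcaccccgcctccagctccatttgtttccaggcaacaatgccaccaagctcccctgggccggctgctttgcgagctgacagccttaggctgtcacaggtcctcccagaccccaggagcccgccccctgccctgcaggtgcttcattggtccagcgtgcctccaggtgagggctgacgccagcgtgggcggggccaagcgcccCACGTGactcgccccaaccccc

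The Ldha window held 2 CACGTG and 5 ACGTG, the most of the 6, with the CACGTG beginning 145 and 48 bases before the start. Hk2 and Pgk1 each held 2 ACGTG, Aldoa and Pgam1 held 1, and Pfkfb2 held 1 CACGTG and thereby 2 ACGTG. The 34 genes with a window (all but Slc2a3) had 50 windows in all, and a gene was counted if any of its windows held a match. ACGTG was present before the start of 13 of these 34 (38.2%), against 18.5% of 27018 genes with a window and 25.2% of 9974 tested genes with one. Members had more windows per gene, and counted by window the share was 17 of 50 (34%), against 16.6% of 32841. CACGTG was present for 4 of 34 (11.8%), namely Ldha, Pfkfb2, Pfkfb3 and Pfkm, against 6.86% and 9.72%, or 4 of 50 windows (8%) against 6.02%. These matches describe letters in the windows and do not show that a factor binds there.

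The share of all counts on genes that fell on the 35 genes differed more than 5-fold between groups. At 0 h the share was 2.55, 1.96, 1.75, 2.16 and 2.66% in replicates 1 to 5. After 24 h with IL-2 it was 0.762, 1.24, 1.25, 1.47 and 1.7% at pH 7.4 and 0.549, 0.515, 0.468, 0.661 and 0.633% at pH 6.6. Replicate 1 was the lowest of the pH 7.4 libraries, yet all 5 lay above all pH 6.6 libraries. Without IL-2 the share was 0.386, 0.396, 0.391, 0.38 and 0.449% at pH 7.4 and 0.504, 0.45, 0.463, 0.608 and 0.578% at pH 6.6, and every acid library was above the highest pH 7.4 library. The group means (± SD, n = 5) were 2.22% ± 0.386 at 0 h, 1.28% ± 0.346, 0.958% ± 0.146 and 0.565% ± 0.0806 at pH 7.4, 7 and 6.6 with IL-2, and 0.4% ± 0.028, 0.433% ± 0.0429 and 0.52% ± 0.0699 without. The means without IL-2 were the lowest 3 of the 7, and pH 6.6 with IL-2 followed them.

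**Figure D1:**
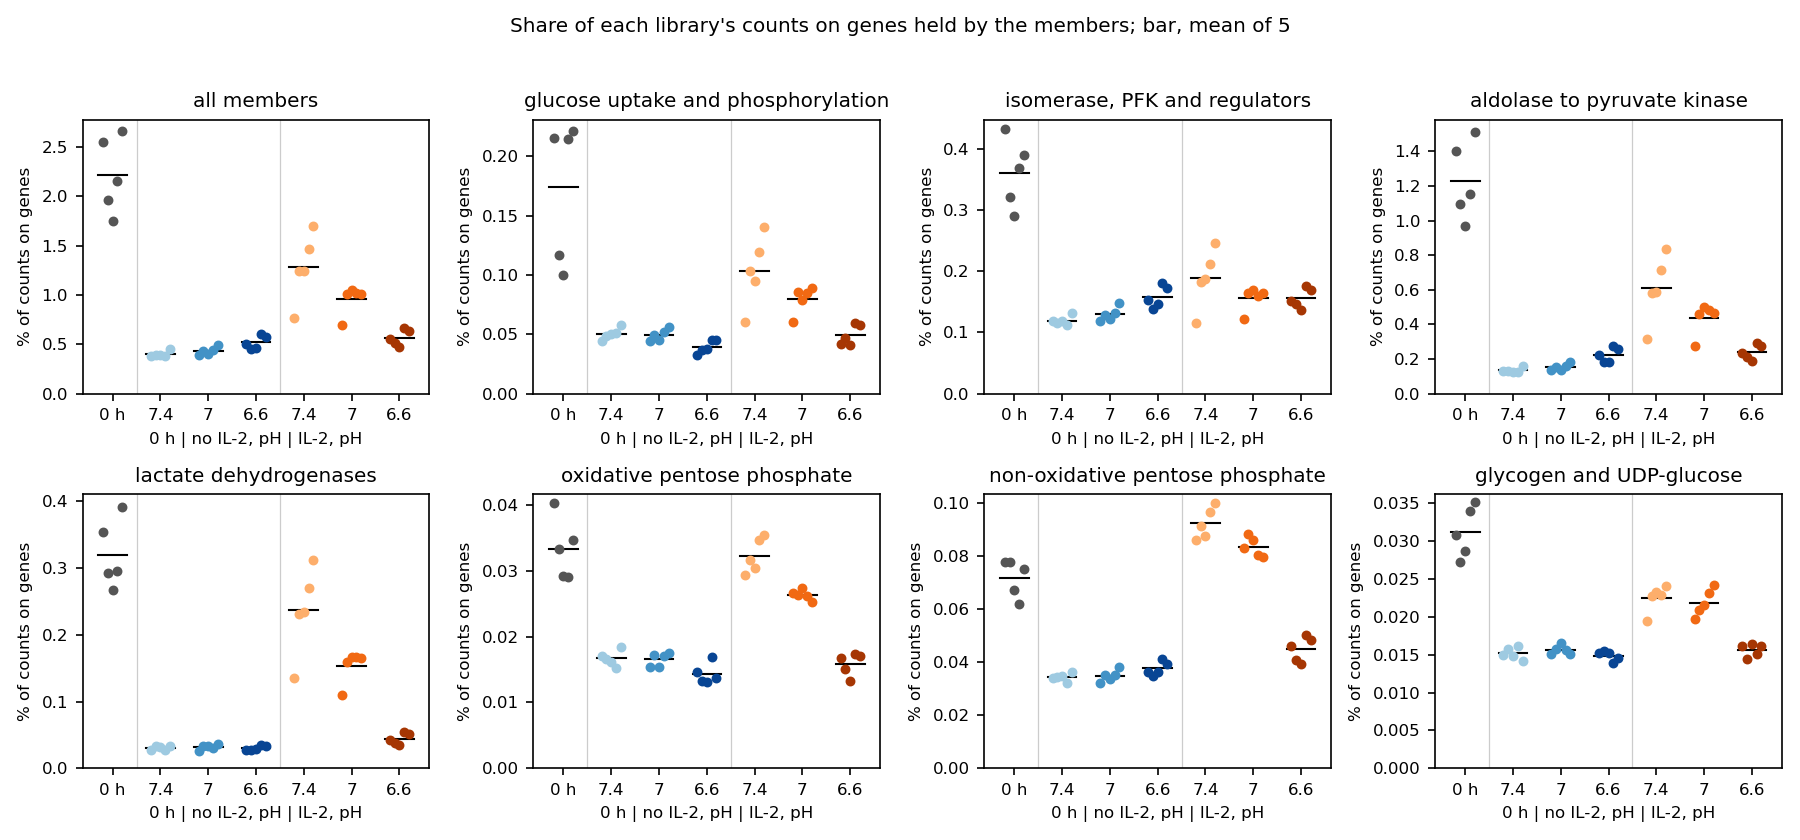
Share of all counts on genes, in percent, that fell on the 35 genes together and on each of 7 roles, in the 35 libraries by group. Points are libraries and bars are group means. The 0 h libraries lie between 1.75% and 2.66%, the pH 7.4 libraries with IL-2 between 0.762% and 1.70%, and the pH 6.6 libraries with IL-2 between 0.468% and 0.661%.

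A few enzymes made up most of these counts, since the top 6 genes held 64.7% to 76.8% of them in each group. Compared per kilobase of exon, Aldoa stood highest at 0 h with a mean of 1655 CPM per kb, followed by Ldha with 976, Pkm, the pyruvate kinase gene, with 770.0 and the triosephosphate isomerase gene Tpi1 with 481. The length is that of all annotated exons of a gene, not of the transcripts expressed, so the order of genes depends on the annotation. At pH 7.4 with IL-2, Ldha had 753, Aldoa 679, Pkm 464 and Tpi1 287 CPM per kb. At pH 6.6 with IL-2 the order had changed, with Aldoa at 428, the glucose phosphate isomerase gene Gpi1 at 176, Ldha at 132 and Pkm at 106 CPM per kb. Genes with near-identical copies lose reads that align to several places. Of the 50-base windows of the annotated transcripts, 46.1% were found in no transcript of another gene for Pgk1, 63.8% for Pgam1 and 74.01% for the enolase gene Eno1. The values were 74.2% for Pkm and 74.9% for Gapdh, whose windows are shared with 213 pseudogenes. Windows shared with an overlapping gene also counted as shared, and the rest of the genome was not searched. The levels of these 5 are therefore likely understated in all groups, by an amount that was not measured. Gapdh, the glyceraldehyde phosphate dehydrogenase gene, had group means of only 17.3 to 32.2 CPM.

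To ask how acidity changed these genes in CTLs kept in IL-2, pH 6.6 was compared with pH 7.4. A gene was called higher or lower where the adjusted p of edgeR's quasi-likelihood test was under 0.05, and values in parentheses are log2 fold changes ± standard error with that p. Of the 35 genes, 23 were lower at pH 6.6, 1 was higher and 11 did not pass the test. Among all 13819 genes tested 76.3% passed it, so the share of members called (68.6%) was near the background, but 65.7% of the members were lower against 40.9% of all genes. Another 35.4% of all genes were higher. The counts by role given below for this comparison have the same background. They are small and were not tested against it. The median log2 fold change of the 35 was -0.85, against -0.07 for all genes tested. The largest falls were those of Tpi1, 9.92-fold, and Hk2, 8.81-fold, followed by the phosphofructokinase gene Pfkl (5.77-fold), Ldha (5.59-fold), the glucose transporter gene Slc2a1 (5.15-fold) and Pgam1 (4.92-fold). With DESeq2's size factors or test, with scaling to the total count, or with a fit to the compared groups only, the split was 4 higher and 22 lower (with 38% to 41.4% of all genes lower), the added ones being Pfkfb3 (0.53 to 0.54), Pfkfb4 (0.32 to 0.33) and Pfkm (0.27 to 0.28).

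**Figure D2:**
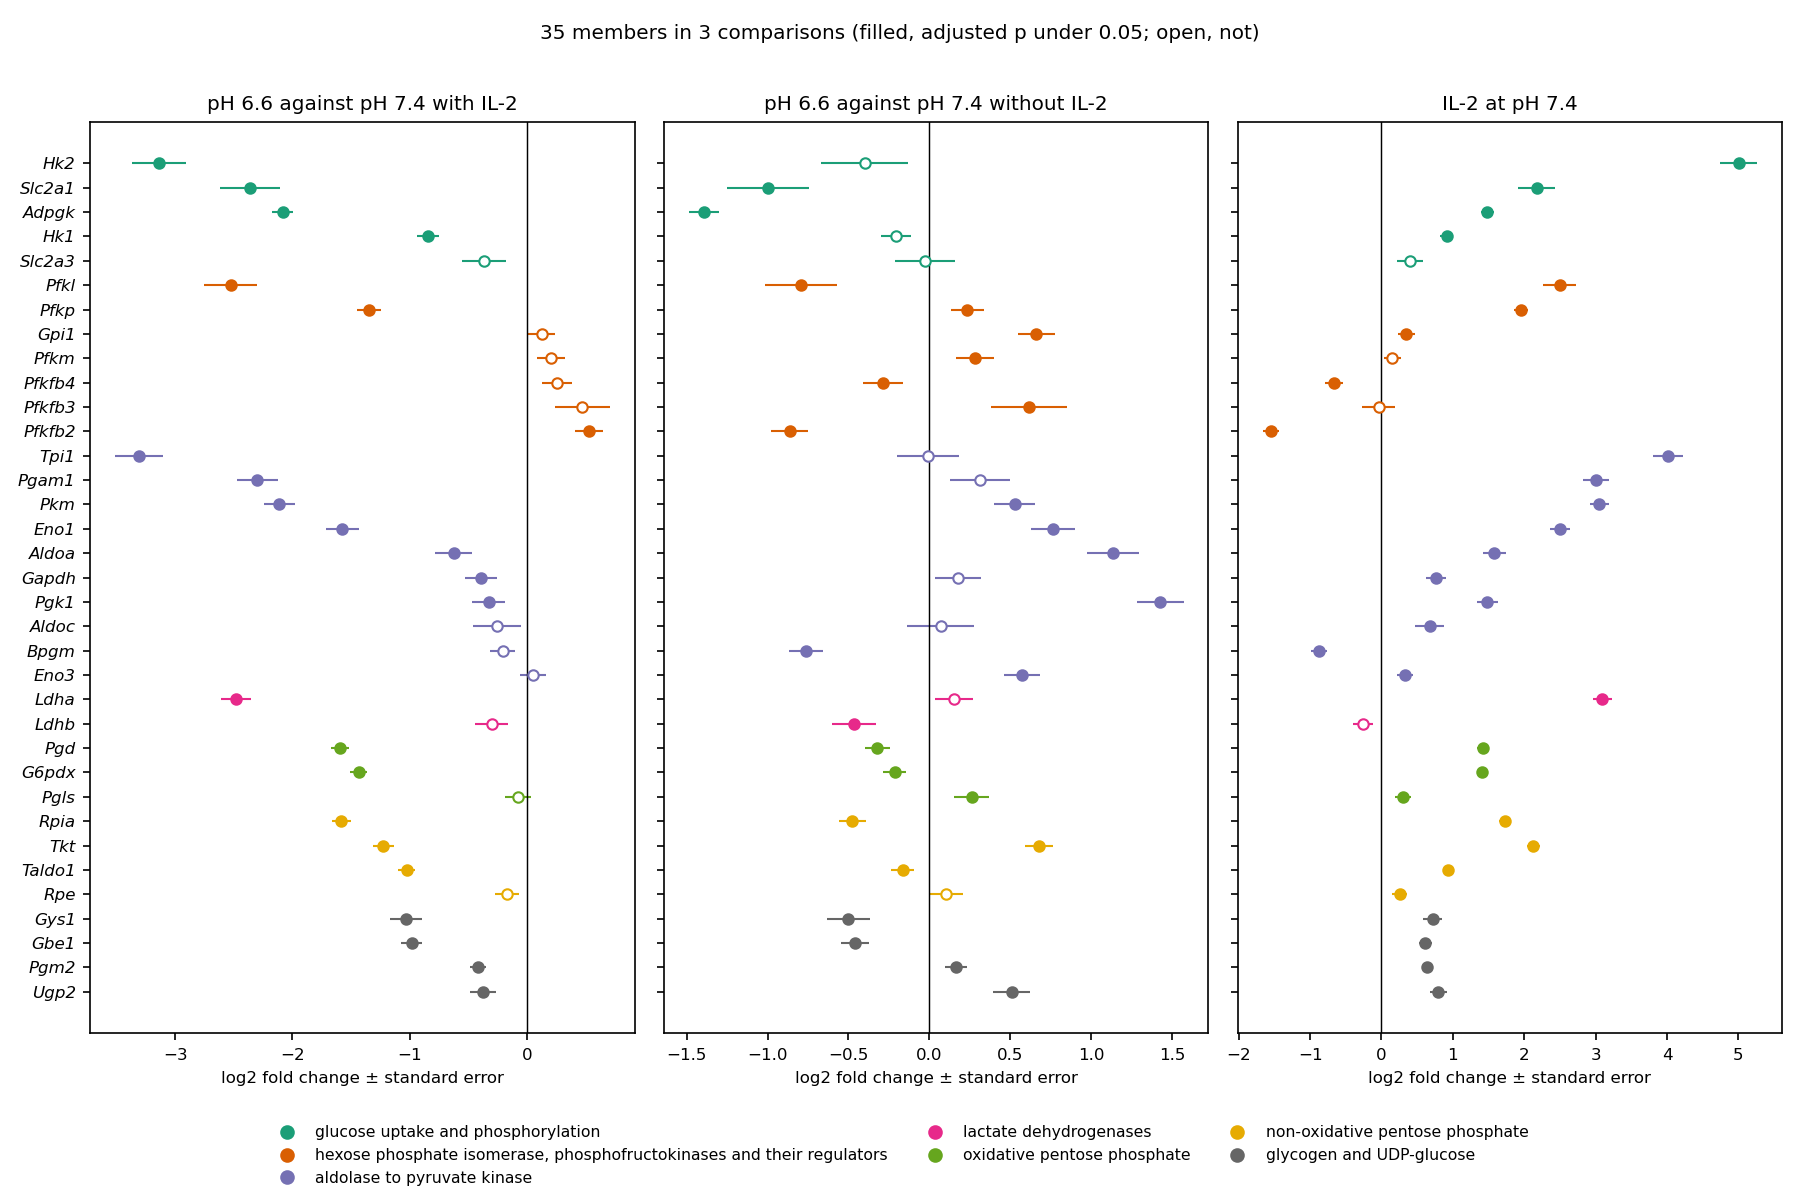
Log2 fold change ± standard error of the 35 genes, ordered by role, for pH 6.6 against pH 7.4 with IL-2, the same without IL-2, and IL-2 against no IL-2 at pH 7.4. Filled points passed an adjusted p of 0.05. With IL-2 the acid values run from -3.31 (Tpi1) to 0.53 (Pfkfb2), without IL-2 from -1.39 (Adpgk) to 1.43 (Pgk1).

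Glucose enters T cells mainly through the transporters GLUT1 (Slc2a1) and GLUT3 (Slc2a3) and is trapped by hexokinases. Of the 5 genes of uptake and phosphorylation, 4 were lower and none higher in acid with IL-2. Hk2 (ENSMUSG00000000628, chr6:82725025-82774454, GRCm38), the inducible hexokinase, had 130.4, 195, 159.9, 198 and 217 CPM at pH 7.4 in replicates 1 to 5 and 27.6, 15.2, 11.8, 28 and 27.1 at pH 6.6. The groups did not overlap, and the log2 fold change was -3.14 ± 0.23, adjusted p = 3.53e-13. The more constant hexokinase gene Hk1 (ENSMUSG00000037012, chr10:62268855-62379908) fell less, from 203, 296, 283, 312 and 313 to 147, 154, 132, 176 and 170.3 CPM, again without overlap (-0.85 ± 0.093, adjusted p = 8.11e-10). Slc2a1 (ENSMUSG00000028645, chr4:119108711-119137983) had 114, 229, 194, 251 and 298 CPM at pH 7.4 and 35, 37.9, 30.2, 55.2 and 53.9 at pH 6.6 (-2.37 ± 0.26, adjusted p = 1.82e-09). All 5 acid libraries were lower than the lowest neutral one. In contrast, Slc2a3 (ENSMUSG00000003153, chr6:122727809-122801640) overlapped, with 121, 322, 305, 425 and 599.6 CPM at pH 7.4 and 177, 262, 239, 309 and 307 at pH 6.6, and did not pass the test (-0.37 ± 0.19, adjusted p = 0.0751). Replicate 1 was the low library at pH 7.4, and without it the value was -0.46 (adjusted p = 0.00593). Adpgk, an ADP-dependent glucokinase, also fell (-2.08 ± 0.092, adjusted p = 1.90e-19), from a mean of 61.4 ± 1.71 to 14.7 ± 3.34 CPM (SD, n = 5).

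Phosphofructokinase commits fructose 6-phosphate to glycolysis and is activated by fructose 2,6-bisphosphate, the product of the PFKFB enzymes. In this role 2 of 7 genes were lower, 1 was higher and 4 did not pass the test. Pfkl (ENSMUSG00000020277, chr10:77986947-78010083), the liver-type subunit, had 71, 201, 182, 228 and 251 CPM at pH 7.4 and 24.4, 28.9, 24.6, 43.8 and 37.4 at pH 6.6 (-2.53 ± 0.23, adjusted p = 2.28e-11). Replicate 1 was low at pH 7.4, though still above every acid library. Pfkp (ENSMUSG00000021196, chr13:6579768-6648777), the platelet-type subunit, went from 444, 627, 631, 671 and 802 to 256, 230.2, 219, 277 and 268 CPM without overlap (-1.34 ± 0.10, adjusted p = 1.42e-13), and Pfkm, the muscle-type subunit, gave 0.21 ± 0.12, adjusted p = 0.106. The 1 gene of the 35 called higher, apart from those alternatives, was Pfkfb2 (ENSMUSG00000026409, chr1:130689182-130729253), which had 5.72, 5.73, 5.46, 5.5 and 4.11 CPM at pH 7.4 and 6.64, 8.36, 7.84, 8.22 and 7.16 at pH 6.6 (0.53 ± 0.12, adjusted p = 0.000207). The groups did not overlap, but 17.4% of its exon bases lie within another gene on the same strand. Its relatives Pfkfb3 (0.47 ± 0.24, adjusted p = 0.0687) and Pfkfb4 (0.26 ± 0.13, adjusted p = 0.0697) did not pass the test, but each did without 1 of the replicates, namely 0.57 without replicate 2 and 0.31 without replicate 5. Gpi1, which turns glucose 6-phosphate into fructose 6-phosphate, had means of 1058 ± 307 and 1136 ± 106 CPM (0.13 ± 0.12, adjusted p = 0.317).

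**Figure D3:**
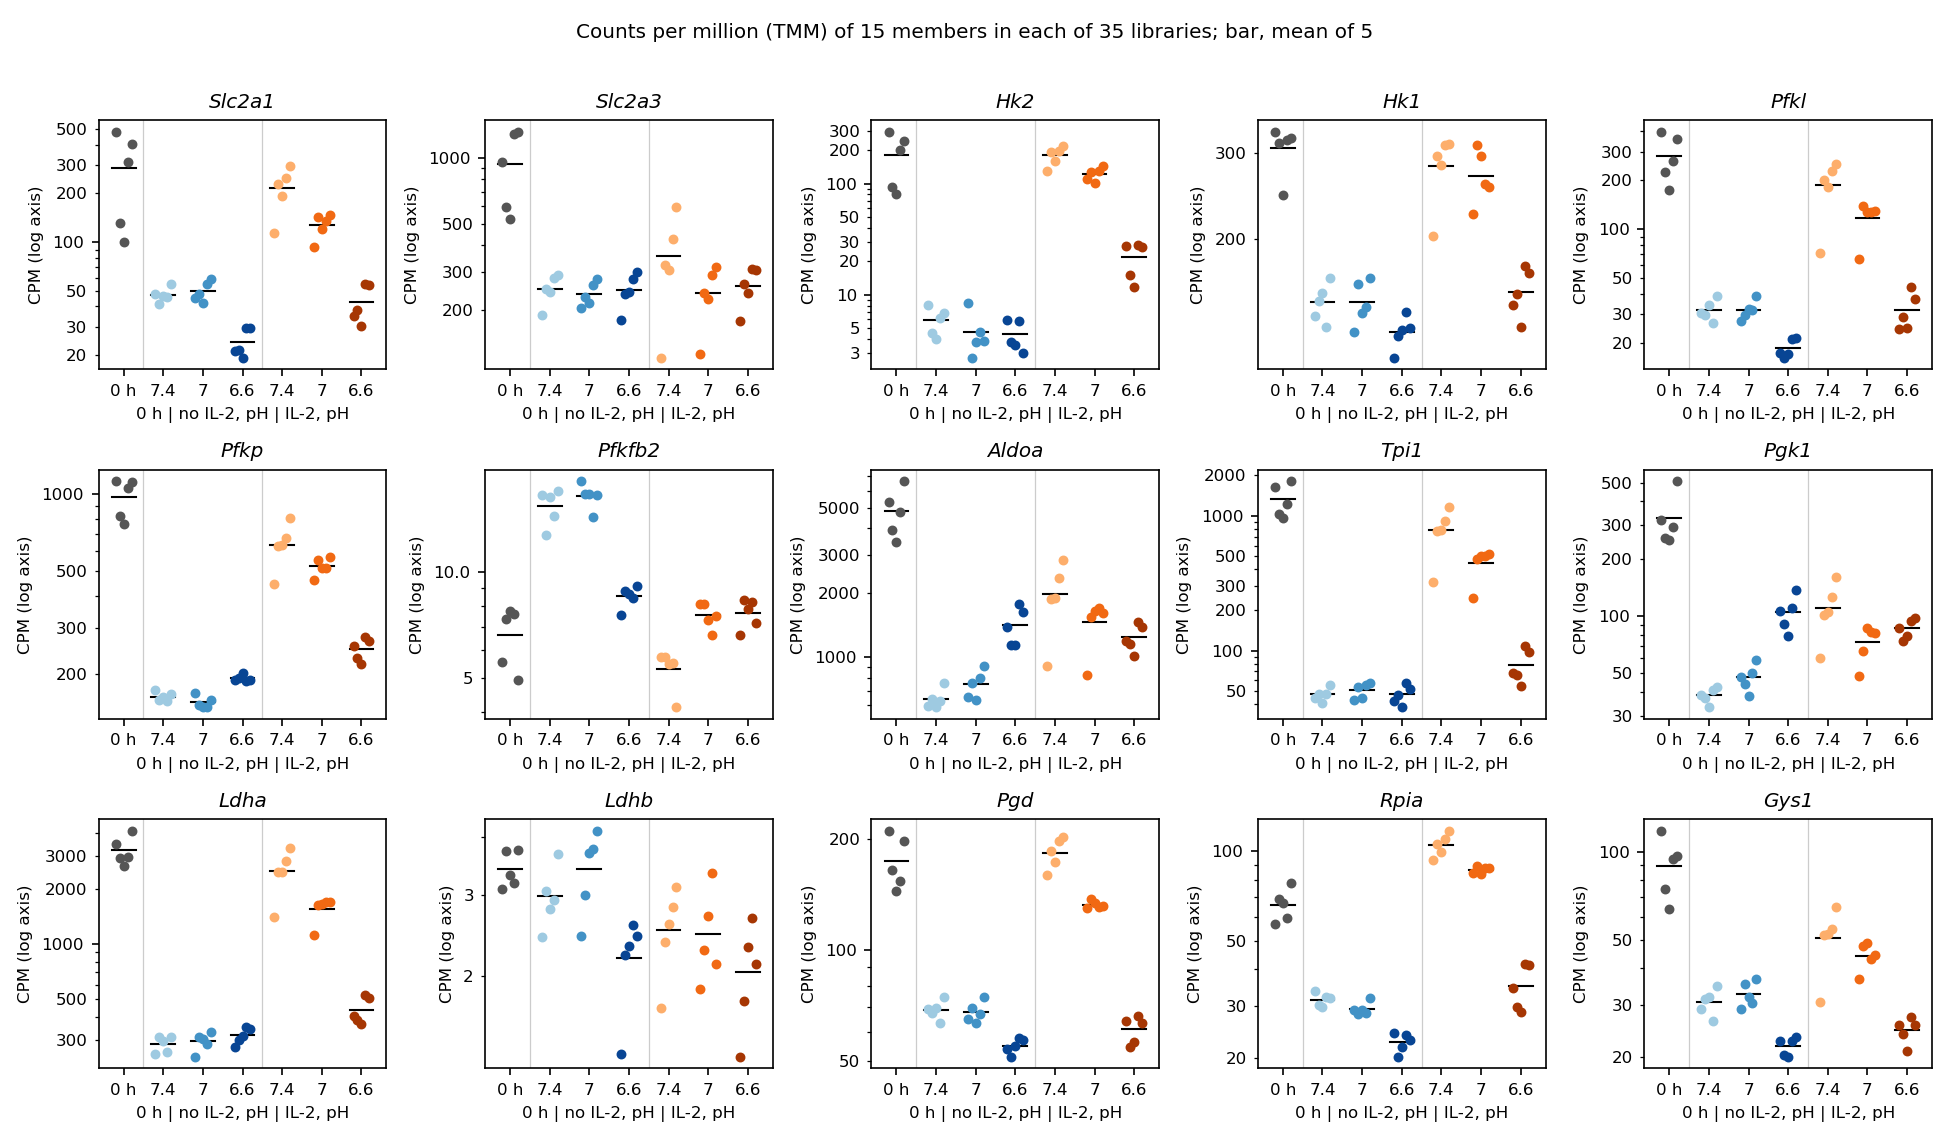
CPM on a log axis for 15 of the 35 genes in the 35 libraries by group. Points are libraries and bars are group means. For Hk2, Tpi1 and Ldha every library at 0 h and at pH 7.4 and 7 with IL-2 lies above all others, and for Hk2 and Ldha the pH 6.6 libraries with IL-2 lie between these and the libraries without IL-2, while Aldoa and Pgk1 without IL-2 are higher at pH 6.6 than in neutral medium.

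From aldolase to pyruvate kinase, 7 of 10 genes were lower in acid with IL-2 and none was higher, with a median of -0.51. Tpi1 (ENSMUSG00000023456, chr6:124810586-124814296) fell the most, from 319.7, 764, 788, 909 and 1165 CPM at pH 7.4 to 67.7, 65.5, 54.4, 107 and 96.7 at pH 6.6. Even replicate 1 at pH 7.4 lay above every acid library (-3.31 ± 0.20, adjusted p = 2.44e-15). The fall was also large for Pgam1 (-2.30 ± 0.17, adjusted p = 1.40e-13), Pkm (-2.11 ± 0.13, adjusted p = 8.69e-16) and Eno1 (-1.57 ± 0.14, adjusted p = 5.47e-12), whose groups did not overlap. Of the exon bases of Pkm, 15.3% lie within another gene on the same strand. The fall was small for Gapdh (-0.39 ± 0.14, adjusted p = 0.0125) and lost the call without replicate 1 (-0.23, adjusted p = 0.16) or replicate 2 (-0.33, adjusted p = 0.0703). Aldoa and Pgk1 are shown in addition because of their values. Aldoa (ENSMUSG00000030695, chr7:126795234-126800751), which splits fructose 1,6-bisphosphate, had 909.8, 1879, 1889, 2343 and 2859.7 CPM at pH 7.4 and 1191, 1159, 1018, 1470.1 and 1389.5 at pH 6.6. Replicate 1 of pH 7.4 lay below all acid libraries and the other 4 lay above them (-0.63 ± 0.16, adjusted p = 0.000778). Pgk1 (ENSMUSG00000062070, chrX:106187100-106203699), the first ATP-yielding enzyme, had 60.6, 101, 105, 126 and 161 and 86.8, 74.3, 79.1, 93.8 and 98 CPM. These groups overlapped, and although the value passed the test (-0.32 ± 0.14, adjusted p = 0.0367), it lost the call in 11 of 12 alternatives (-0.36 to -0.22). Aldoc (-0.25 ± 0.20, adjusted p = 0.258), Eno3 (0.05 ± 0.11, adjusted p = 0.683) and Bpgm (-0.21 ± 0.11, adjusted p = 0.0881), the bisphosphoglycerate mutase gene, did not pass it, though Aldoc did without replicate 1 (-0.38, adjusted p = 0.0184).

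Lactate dehydrogenase is a tetramer of the A and B subunits. Ldha (ENSMUSG00000063229, chr7:46841475-46855627) had 1402, 2465, 2462, 2825 and 3308 CPM at pH 7.4 with IL-2 and 404, 387, 364, 525 and 511 at pH 6.6. The lowest neutral library was above the highest acid one, and the log2 fold change was -2.48 ± 0.13, adjusted p = 5.41e-18. Ldhb (ENSMUSG00000030246, chr6:142490249-142507957) was far lower in counts, with 1.7, 2.36, 2.59, 2.81 and 3.12 CPM at pH 7.4 and 1.33, 1.76, 2.31, 2.67 and 2.12 at pH 6.6. These groups overlapped and the difference did not pass the test (-0.30 ± 0.14, adjusted p = 0.0525), though it did without replicate 4 (-0.37, adjusted p = 0.0336).

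In acid with IL-2, 2 of 3 genes of the oxidative arm of the pentose phosphate pathway and 3 of 4 of the non-oxidative arm were lower (40.9% of all genes). Pgd (ENSMUSG00000028961, chr4:149149991-149166771), the phosphogluconate dehydrogenase gene, had 160.3, 186, 174, 198 and 203 CPM at pH 7.4 and 64.2, 54.8, 56.4, 66.3 and 63.7 at pH 6.6. The spread among replicates was narrow and the groups were well apart (-1.59 ± 0.079, adjusted p = 3.13e-18). G6pdx, which encodes the NADPH-yielding first enzyme, fell from 87.2 ± 6.67 to 32.3 ± 3.75 CPM (SD, n = 5), which is -1.44 ± 0.071, adjusted p = 2.98e-18 on the log2 scale. The lactonase gene Pgls did not pass the test (-0.08 ± 0.11, adjusted p = 0.531), and 20.6% of its exon bases lie within another gene on the same strand. In the non-oxidative arm, Rpia (ENSMUSG00000053604, chr6:70765720-70792232), the ribose phosphate isomerase gene, had 93.7, 106, 99.6, 109.9 and 117 CPM at pH 7.4 and 34.5, 29.7, 28.8, 41.7 and 41.4 at pH 6.6, again with no overlap (-1.59 ± 0.082, adjusted p = 8.48e-18). The transketolase gene Tkt (-1.22 ± 0.090, adjusted p = 5.36e-14) and the transaldolase gene Taldo1 (-1.02 ± 0.071, adjusted p = 1.59e-14) fell as well, whereas the epimerase gene Rpe gave -0.17 ± 0.10, adjusted p = 0.122, or -0.27 (adjusted p = 0.0344) without replicate 3.

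The 4 genes on the way to glycogen and UDP-glucose were all lower, as were 40.9% of all genes. Gys1 (ENSMUSG00000003865, chr7:45434844-45456619), the glycogen synthase gene, had 30.7, 52, 52.2, 54.5 and 64.5 CPM at pH 7.4 and 25.7, 23.9, 20.9, 27.3 and 25.6 at pH 6.6. Replicate 1 of pH 7.4 was again the nearest to the acid libraries but above them (-1.03 ± 0.14, adjusted p = 3.01e-08). The branching enzyme gene Gbe1 gave -0.98 ± 0.088, adjusted p = 7.30e-12, the phosphoglucomutase-family gene Pgm2 -0.42 ± 0.069, adjusted p = 2.22e-06 and Ugp2, which makes UDP-glucose, -0.38 ± 0.11, adjusted p = 0.00366. The last lost the call without replicate 2 (-0.28, adjusted p = 0.0603).

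At pH 7, a milder acidity that shares its pH 7.4 libraries with the comparison above, 13 of the 35 genes were lower with IL-2, 1 was higher and 21 did not pass the test. In all, 19% of the genes tested passed it, so the 40% of members called, and the 37.1% called lower against a background of 9.83%, lay above it. Another 9.15% of all genes were higher. The members' median on the log2 scale was -0.26 (all genes -0.01). The largest falls were those of Tpi1 (-0.78 ± 0.19, adjusted p = 0.00367), Slc2a1 (-0.74 ± 0.24, adjusted p = 0.0332), Pgam1 (-0.69 ± 0.16, adjusted p = 0.00277) and Ldha (-0.66 ± 0.12, adjusted p = 0.000221). Slc2a1 lost the call in 6 of 12 alternatives, with -0.76 to -0.67 when replicate 2, 3, 4 or 5 was left out. Pfkfb2 rose (0.51 ± 0.12, adjusted p = 0.00308). Tpi1 had 244, 478, 505, 503 and 516 CPM at pH 7, and Ldha 1116, 1627, 1656, 1691 and 1699. In both genes replicate 1 was far below the other replicates at pH 7 as it was at pH 7.4, and its pH 7.4 library fell within the range of the pH 7 libraries. Pgd, with 130.3, 138, 134, 131 and 132 CPM at pH 7, had no such overlap (-0.47 ± 0.077, adjusted p = 6.67e-05). Hk2 had 111, 128, 101, 129.8 and 143 CPM and did not pass the test (-0.57 ± 0.21, adjusted p = 0.0564), though it did without replicate 1 (-0.63, adjusted p = 0.0186), in a fit to these groups only (-0.52, adjusted p = 0.000139) and with at least 10 counts required in every library (-0.57, adjusted p = 0.0478). The mean at pH 7 lay between those at pH 7.4 and pH 6.6 for 21 of the 23 genes that were lower at pH 6.6, a count not made for all genes tested. The ratio of the pH 7 to the pH 6.6 log2 fold change had a median of 0.235 over those 23. The count at pH 7 depended on replicates, with 1 higher and 6 lower without replicate 5 (16.3% of all genes called) and 1 higher and 19 lower without replicate 1 (17.6%).

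The response to IL-2 itself was then taken at each pH. At pH 7.4, 28 of the 35 genes were higher with IL-2 than without, 3 were lower and 4 did not pass the test. Of all genes tested 80.4% passed, 39.3% higher and 41.1% lower, whereas 88.6% of the members passed and 80% were higher. The members' median log2 fold change was 0.91 (all genes -0.04). Hk2 was the most responsive, 32.1-fold higher with IL-2, and had 8.05, 4.52, 4.02, 6.13 and 6.81 CPM without it (5.00 ± 0.26, adjusted p = 4.50e-17). Tpi1, with 44.5, 47.4, 40.7, 47.9 and 55.7 CPM without IL-2, was 16.1-fold higher with it (4.01 ± 0.21, adjusted p = 2.59e-17). Ldha had 250.1, 311, 294, 259 and 312 CPM without IL-2 and was 8.55-fold higher with it (3.10 ± 0.13, adjusted p = 1.23e-20). In each of these genes the libraries with and without IL-2 were far apart. Pkm was 8.31-fold and Pgam1 8.02-fold higher. The 3 genes that were lower with IL-2 were Pfkfb2 (-1.55 ± 0.12, adjusted p = 9.13e-14), Bpgm (-0.88 ± 0.11, adjusted p = 6.69e-09) and Pfkfb4 (-0.67 ± 0.13, adjusted p = 1.58e-05). Pfkfb2 had 16.7, 12.8, 16.5, 14.5 and 17.1 CPM without IL-2, each above all libraries with it. Genes not past the test were Slc2a3 (0.40 ± 0.19, adjusted p = 0.0515), Ldhb (-0.26 ± 0.13, adjusted p = 0.0755), Pfkm (0.15 ± 0.12, adjusted p = 0.228) and Pfkfb3 (-0.04 ± 0.24, adjusted p = 0.883). All genes of the oxidative and non-oxidative pentose phosphate arms (7 of 7) and of glycogen and UDP-glucose (4 of 4) were higher with IL-2, among them Rpia (1.73 ± 0.082, adjusted p = 3.56e-19) and Tkt (2.13 ± 0.092, adjusted p = 3.60e-20). The weakest of these were Rpe (0.25 ± 0.10, adjusted p = 0.0233), which lost the call without replicate 1 (0.12, adjusted p = 0.325) or 2 (0.16, adjusted p = 0.238), with total count scaling (0.095) and with at least 10 counts required in every library (0.20), and Pgls (0.30 ± 0.11, adjusted p = 0.013), which lost it without replicate 1 (0.25, adjusted p = 0.0604) or 2 (0.27, adjusted p = 0.0666) and with total count scaling (0.14). Slc2a3 passed without replicate 1 (0.53, adjusted p = 0.00173) and by DESeq2 (0.39, adjusted p = 0.0446), and Ldhb passed as lower with total count scaling (-0.42, adjusted p = 0.00571) and with at least 10 counts in every library (-0.31, adjusted p = 0.0295).

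At pH 7, 26 genes were higher with IL-2, 4 lower and 5 not past the test (background 77.2% called, 37.6% higher, 39.5% lower) and the median was 0.74. Hk2 gave 4.80 ± 0.26 and Tpi1 3.13 ± 0.20 on the log2 scale. At pH 6.6 only 11 genes were higher with IL-2, 1 was lower and 23 did not pass the test, for a background of 23.7% called, 13.2% higher and 10.6% lower, and the median was 0.15. Of the 5 genes of uptake and phosphorylation, 4 were higher with IL-2 at pH 6.6, with Hk2 at 2.26 ± 0.26, adjusted p = 7.71e-08, Slc2a1 at 0.80 ± 0.25, adjusted p = 0.0211, Adpgk at 0.79 ± 0.10, adjusted p = 1.42e-07 and Hk1 at 0.27 ± 0.093, adjusted p = 0.0305. Hk2 without IL-2 at pH 6.6 had 5.93, 3.79, 3.54, 5.77 and 3.01 CPM, all below the pH 6.6 libraries with IL-2. Tpi1 (0.71 ± 0.19, adjusted p = 0.00644), Ldha (0.46 ± 0.12, adjusted p = 0.00452) and Pkm (0.41 ± 0.13, adjusted p = 0.0155) were also higher. The lower gene was Bpgm (-0.32 ± 0.11, adjusted p = 0.0327). This count rested on single replicates, being 4 without replicate 4 (15.3% of all genes called) and 6 without replicate 5 (18.1%), all of them higher. Bpgm lost its call without any 1 replicate (-0.34 to -0.29), Hk1 without replicate 2, 4 or 5 (0.25 to 0.31), Slc2a1 (0.77 and 0.79) and Pkm (0.37 and 0.39) without replicate 4 or 5, and Tpi1 without replicate 4 (0.65).

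Without IL-2, pH 6.6 was again compared with pH 7.4. Here the genes split evenly, with 13 higher, 13 lower and 9 not past the test, where 67% of all genes were called, 31.6% higher and 35.4% lower. The members' median was 0.07 on the log2 scale (all genes -0.03). Scaled to the total count, which moved the median of all genes to -0.19, the split was 8 higher and 14 lower (23.2% and 43.8% of all genes), and without replicate 4 it was also 8 and 14 (29.3% and 33.8%). Pgk1 rose 2.69-fold, from 38.5, 37.3, 33.2, 41.2 and 42.3 CPM at pH 7.4 to 107, 90.9, 78.9, 110.4 and 138 at pH 6.6 (1.43 ± 0.14, adjusted p = 3.38e-10). Aldoa rose 2.19-fold, from 591, 638, 584, 627 and 758 to 1382, 1139, 1145, 1767 and 1636 CPM (1.13 ± 0.16, adjusted p = 2.88e-07). In both genes every acid library was above every neutral one. Of the 10 genes from aldolase to pyruvate kinase 5 were higher, including Eno1 (0.76 ± 0.14, adjusted p = 1.25e-05) and Pkm (0.53 ± 0.13, adjusted p = 0.000491), and only Bpgm was lower (-0.76 ± 0.11, adjusted p = 2.10e-07). Gpi1 (0.66 ± 0.12, adjusted p = 8.47e-06), Tkt (0.68 ± 0.089, adjusted p = 6.74e-08), Pfkfb3 (0.62 ± 0.23, adjusted p = 0.0223) and Ugp2 (0.51 ± 0.11, adjusted p = 0.00024) were higher too. Of these, Pfkfb3 lost the call without replicate 4 (0.61) or 5 (0.63).

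Other steps fell in acid without IL-2. Adpgk fell the most (-1.39 ± 0.094, adjusted p = 3.96e-14). Slc2a1 went from 47.6, 41.3, 46.6, 45.5 and 55.3 CPM to 21.3, 21.5, 19.2, 29.2 and 29.4 (-0.995 ± 0.25, adjusted p = 0.00111) and Pfkl from 30.6, 29.8, 34.4, 26.4 and 38.7 to 17.2, 16.2, 17.1, 21.2 and 21.3 (-0.79 ± 0.22, adjusted p = 0.00276), both without overlap. Pfkfb2, which rose in acid with IL-2, fell here to 7.53, 8.85, 8.68, 8.47 and 9.16 CPM, below all pH 7.4 libraries (-0.86 ± 0.11, adjusted p = 6.81e-08). Rpia (-0.48 ± 0.082, adjusted p = 6.78e-06), Pgd (-0.32 ± 0.078, adjusted p = 0.000529) and Gys1 (-0.50 ± 0.14, adjusted p = 0.00172) were also lower. Of the 6 genes with the largest falls in acid with IL-2, Pfkl and Slc2a1 thus fell without it too, and the other 4 did not pass the test. Tpi1 at pH 6.6 had 42, 47, 37.8, 57.4 and 51.9 CPM (-0.01 ± 0.19, adjusted p = 0.973), Hk2 gave -0.40 ± 0.27, adjusted p = 0.195, and Ldha had 276, 302, 316, 351 and 344 CPM (0.15 ± 0.12, adjusted p = 0.262). All 3 overlapped with the pH 7.4 libraries. Pgam1 gave 0.31 ± 0.18, adjusted p = 0.131, with groups that did not overlap, and passed as higher without replicate 1 (0.35, adjusted p = 0.00843). In a fit to these groups only, Pgam1 passed as higher (0.32, adjusted p = 0.0231) and Hk2 as lower (-0.42, adjusted p = 0.0266).

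At pH 7 without IL-2 none of the 35 genes passed edgeR's test, for a background of 1.68% (1.36% higher, 0.318% lower), and 3 had an unadjusted p under 0.05. DESeq2 also called none, with 3 under an unadjusted 0.05, and a fit to these groups only called 4 higher (11.4%), where 7.32% of all genes in that fit were called and 4.67% were higher. The median log2 fold change was 0.04. Pgk1 had 48.1, 44.3, 38.2, 50.4 and 58.8 CPM and Aldoa 653, 760.2, 630.4, 798 and 913, with values of 0.31 ± 0.14, adjusted p = 0.56 and 0.22 ± 0.16, adjusted p = 0.877. Both genes had means between those at pH 7.4 and pH 6.6, and both passed in the fit to these groups only (0.30 and 0.22).

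The difference of the pH 6.6 effect with and without IL-2, tested as an interaction over the same libraries, passed for 28 of the 35 genes, of which 25 were negative (a more negative acid effect with IL-2) and 3 positive. The background was 67% called, 34.3% higher and 32.8% lower, and the members' median was -0.69 (all genes 0.04). With scaling to the total count, which moved the median of all genes to 0.27, 21 were negative and 3 positive (25.5% and 43% of all genes). The largest differences were those of Tpi1 (-3.30 ± 0.27, adjusted p = 5.63e-12), Hk2 (-2.74 ± 0.35, adjusted p = 6.59e-08), Pkm (-2.64 ± 0.18, adjusted p = 2.68e-14), Ldha (-2.64 ± 0.17, adjusted p = 7.26e-15) and Pgam1 (-2.61 ± 0.25, adjusted p = 8.96e-11). The positive ones were Pfkfb2 (1.39 ± 0.17, adjusted p = 7.59e-09), Bpgm (0.56 ± 0.15, adjusted p = 0.00204) and Pfkfb4 (0.55 ± 0.18, adjusted p = 0.00813). By the calls in each culture, 8 genes were lower with IL-2 and higher without, 1 (Pfkfb2) was higher with and lower without, and 9 were lower in both. A further 6 were lower with IL-2 and not past the test without it, 5 were higher and 3 lower without IL-2 alone, and 3 passed in neither. Of all genes tested, 76.3% passed with IL-2 and 67% without, but their joint calls were not counted. Of the 8 genes lower with IL-2 and higher without, Pgk1 lost its call with IL-2 and Pfkp its call without IL-2 in most alternatives.

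**Figure D4:**
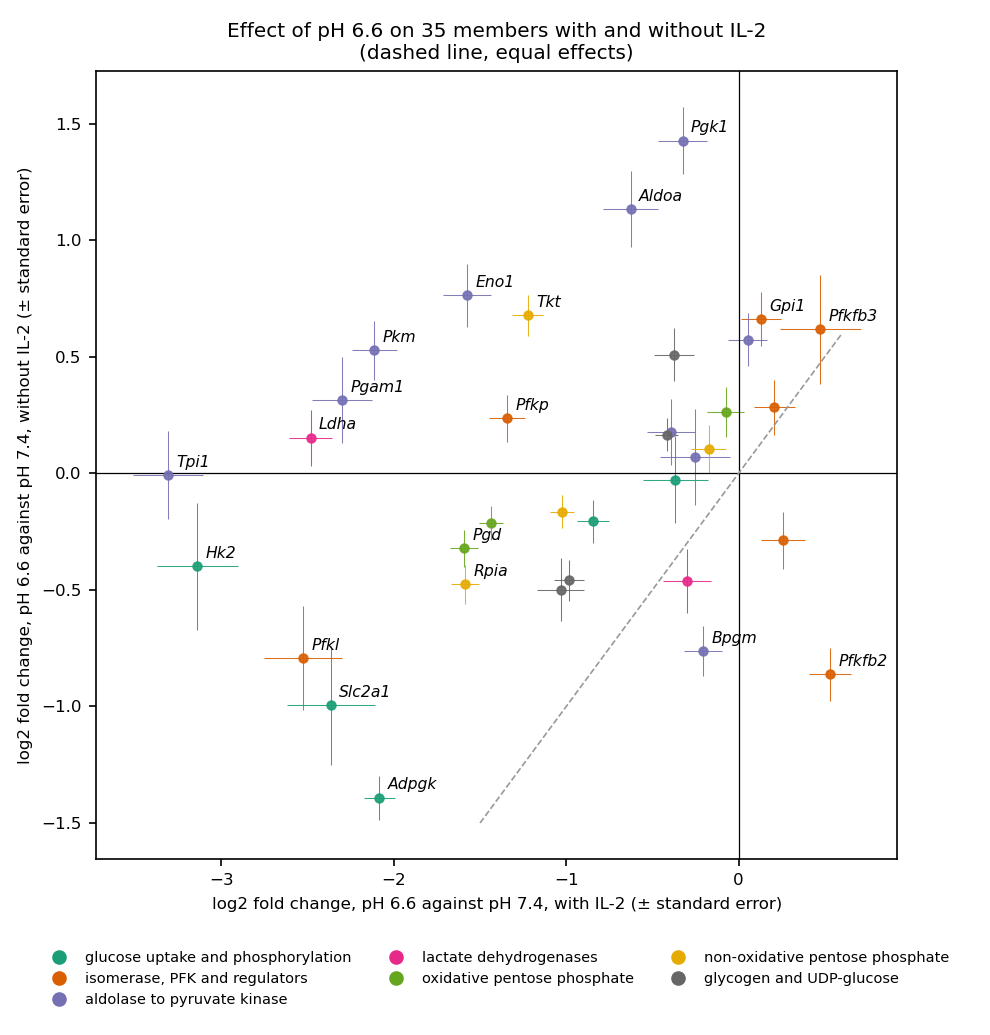
Log2 fold change of the 35 genes for pH 6.6 against pH 7.4 with IL-2 (horizontal) and without IL-2 (vertical), with colors for roles. Tpi1, Ldha, Pgam1 and Pkm lie below -2 on the horizontal axis but near or above 0 on the vertical. Pfkfb2 is the 1 gene in the lower right part with both values past the test.

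Compared with the cells at 0 h, whose 5 libraries are shared by all comparisons of this kind, most genes were lower after 24 h in each of the 4 conditions compared. With IL-2 at pH 7.4, 19 were lower, 8 higher and 8 not past the test (background 59.9% called, 29% higher, 30.9% lower), with a median of -0.47, or -0.23 without replicate 1. Hk2 had 294, 93.3, 80.8, 199 and 244 CPM at 0 h and its level after 24 h with IL-2 at pH 7.4 did not differ past the test (0.13 ± 0.21, adjusted p = 0.61). Slc2a1 had 484, 132, 99.7, 313 and 407 CPM at 0 h and did not pass the test either (-0.36 ± 0.25, adjusted p = 0.214). The 0 h libraries of both genes spread widely, with replicates 2 and 3 low, and Slc2a1 passed without replicate 3 (-0.58, adjusted p = 0.0494). Aldoa had 5318, 3914, 3445, 4758 and 6656 CPM at 0 h and fell (-1.32 ± 0.16, adjusted p = 2.55e-08), as did Pgk1, which had 321, 257, 251, 293 and 512 CPM (-1.56 ± 0.14, adjusted p = 4.93e-11). Every 0 h library was above all 30 libraries at 24 h for both, as it was for Gpi1, Aldoc, Pkm and Gbe1. How many of all genes tested show this was not counted, so it has no background. Ldha was lower by less (-0.41 ± 0.12, adjusted p = 0.00398), and lost the call without replicate 1 (-0.20, adjusted p = 0.0879). The 4 genes of the non-oxidative pentose phosphate arm were all higher than at 0 h, with Rpia at 56.9, 68.9, 66.9, 59.7 and 78.2 CPM at 0 h (0.67 ± 0.079, adjusted p = 1.08e-08), Taldo1 at 0.62 ± 0.071, adjusted p = 4.90e-09 and Tkt at 0.35 ± 0.088, adjusted p = 0.00115. Rpe (0.35 ± 0.10, adjusted p = 0.00406) lost this call without replicate 1 (0.22, adjusted p = 0.0983).

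At pH 6.6 with IL-2, 29 genes were lower than at 0 h, none higher and 6 not past the test (background 68.5% called, 30.5% higher, 38% lower), and the median was -0.98. Without IL-2, 30 were lower and 2 higher at pH 7.4 (75.2% called, 36.9% higher, 38.3% lower, median -1.34). At pH 6.6 without IL-2, 29 were lower and 2 higher (75.1% called, 34.8% higher, 40.3% lower, median -1.54). Hk2 fell by 4.87 ± 0.26 on the log2 scale at pH 7.4 without IL-2 and Tpi1 by 4.81 ± 0.22. Pfkfb2 at 0 h had 5.56, 7.36, 7.77, 7.61 and 4.92 CPM, and rose at pH 7.4 without IL-2 (1.23 ± 0.12, adjusted p = 2.86e-11), as did Bpgm (1.32 ± 0.11, adjusted p = 1.60e-12). The highest of the 7 group means was at 0 h for 23 genes, at pH 7.4 with IL-2 for 7 and elsewhere for 5. The same count was not made for all genes tested, so these numbers have no background.

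Because several steps are served by paralogs, the ratio of their counts per exon length was taken within each library for 4 pairs and compared for pH 6.6 against pH 7.4 by an exact two-sided permutation test of 5 against 5 libraries, with p-values adjusted over 8 tests. The length of all annotated exons was used, which affects the level of a ratio but not its change between groups. The smallest p this design allows is 0.00794. With IL-2, the log2 ratio of Hk2 to Hk1 went from -0.14 to -2.39, that of Slc2a1 to Slc2a3 from 0.45 to -1.58 and that of Ldha to Ldhb from 8.85 to 6.70, while Pfkp to Pfkl rose from 0.86 to 2.002. Each of these 4 changes had an exact p = 0.00794 (adjusted p = 0.00907). In acid with IL-2, Hk1, Slc2a3, Ldhb and Pfkp each made up more of their pair than at pH 7.4. Without IL-2, Slc2a1 to Slc2a3 fell (-1.35 to -2.31) and Pfkp to Pfkl rose (1.35 to 2.37), as with IL-2. Ldha to Ldhb rose instead, from 5.51 to 6.14, and Hk2 to Hk1 went from -4.18 to -4.40 (exact p = 0.452, adjusted p = 0.452). Of the changes without IL-2, those of the other 3 pairs had an exact p = 0.00794 (adjusted p = 0.00907). With the replicates paired, an exact sign-flip test of 5 pairs cannot go below 0.0625, the value found for these 7 changes.

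**Figure D5:**
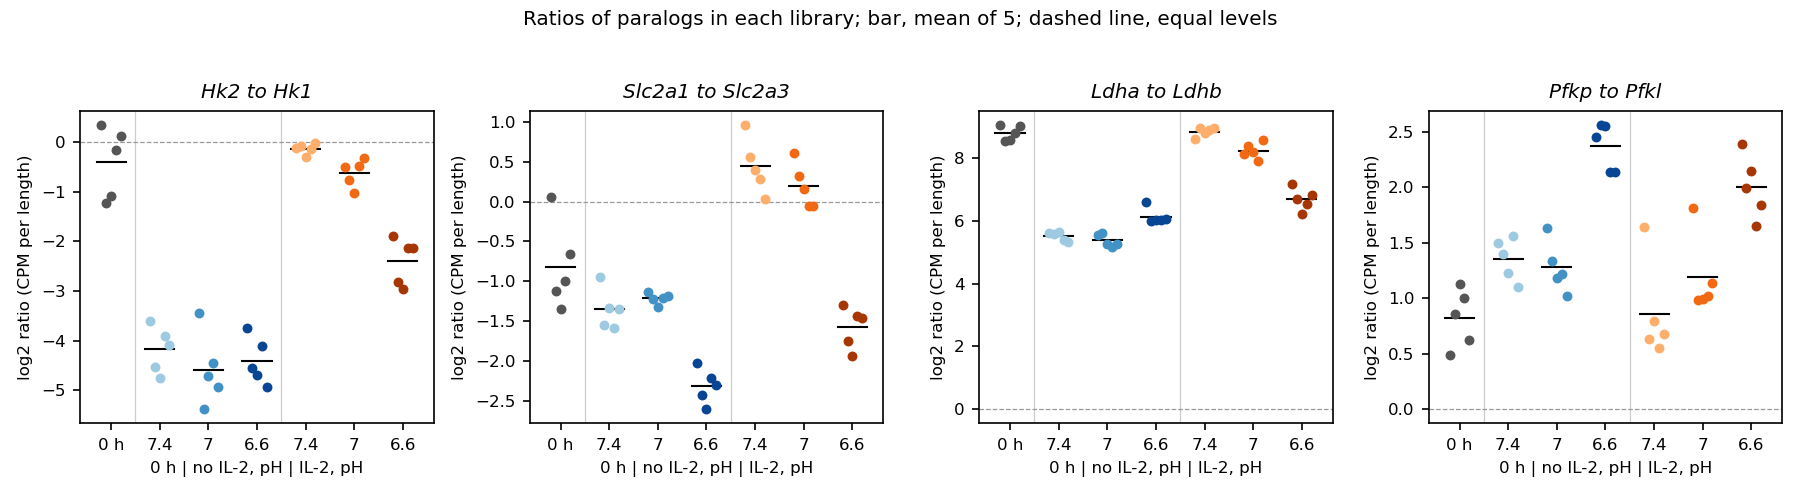
Log2 ratio of CPM per exon length within each library for the pairs Hk2 to Hk1, Slc2a1 to Slc2a3, Ldha to Ldhb and Pfkp to Pfkl, by group. Points are libraries and bars are group means. With IL-2 the pH 6.6 libraries lie below the pH 7.4 libraries for the first 3 pairs and above them for the last.

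Other genes of sugar metabolism were drawn from a list of 56 symbols, of which 37 passed the filter. Of these 37, 12 were higher, 20 lower and 5 not past the test in acid with IL-2, or 86.5% called against 76.3% of all genes, with a median of -0.30. The largest rise was that of Pygl, the liver-type glycogen phosphorylase gene, which had 26.2, 29.8, 39.9, 34.8 and 55.3 CPM at pH 7.4 and 152, 136, 139, 121 and 132 at pH 6.6. Its groups were far apart (1.89 ± 0.13, adjusted p = 1.84e-14), and it also rose without IL-2 (0.67 ± 0.13, adjusted p = 2.89e-05). The galactokinase gene Galk1 fell from 62.4, 83.2, 81, 102 and 115 to 16.3, 12.4, 11.2, 22.2 and 20.6 CPM (-2.43 ± 0.17, adjusted p = 3.75e-14). The transporter gene Slc2a6 rose in acid in the cells with IL-2 (1.70 ± 0.26, adjusted p = 5.22e-07). Its level was low, with 1.20 to 2.47 CPM at pH 7.4 and 4.24 to 6.47 at pH 6.6. Gapdhs, the sperm form of glyceraldehyde-3-phosphate dehydrogenase, passed the test at a level near 0 CPM (1.60 ± 0.50, adjusted p = 0.00459). Without IL-2, 9 of the 37 were higher and 16 lower, or 67.6% called, near the 67% of all genes (31.6% higher, 35.4% lower).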

How the data were processed

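RNA of the 35 libraries was sequenced as single reads on an Illumina HiSeq after stranded poly(A) library preparation. Per the labels, the authors trimmed reads with cutadapt 1.8, aligned them to GRCm38 with STAR 2.5.2b and counted them with HTSeq 0.6.1. The deposited values are raw counts per gene with no normalization. The annotation, the read length and the strand setting are not given in the sources used here. HTSeq left out reads without a unique alignment (32.8% to 48.3% of the reads per library), and reads outside genes made up 2.58% to 11.1%. These classes were left out of the library sizes.

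Identifiers were matched to symbols and coordinates through GENCODE M21. Genes were filtered with filterByExpr (minimum count 10) and the 35 libraries were fitted together with edgeR 4.0.16 in R 4.3.3 (TMM normalization, robust quasi-likelihood F test, replicate number as a block). P-values were adjusted by Benjamini-Hochberg over the 13819 genes tested, with a threshold of 0.05. Errors of log2 fold changes are standard errors, and CPM are counts scaled to the TMM-normalized library total. Members and gene lists were chosen with earlier results of these data known. All members are named. Values per library are given for the largest fall and rise in each role for pH 6.6 against pH 7.4 with IL-2 (past the threshold, mean log2 CPM of at least 3, same sign in 5 of 5 pairs) and for the paralog pairs, to which Aldoa and Pgk1 were added after their values were seen. Of the other sugar metabolism genes, the largest rises and falls are named, except for items not reported here. The replicate numbers come from the labels. Of 105 same-numbered pairs of libraries, 95 had deviations from the group means correlated above 0.1 (median 0.273). Libraries of a group differed beyond counting noise (chi-square of at least 6.65 per degree of freedom), so none was a duplicate. In simulated counts for pH 6.6 against pH 7.4 with IL-2, a change was put into 200 of 13434 genes. In log2 units, the test found 47 of 67 changes of 0.5, 66 of 67 of 1 and 66 of 66 of 2. It called 192 genes, and 179 of those had been changed. Since 76.3% of all genes passed in the measured comparison, these numbers do not show how the test performs where most genes change. Paralog ratios were tested with scipy 1.17.1. Alternatives were other normalizations, DESeq2 1.42.0, other filters, a fit to the compared groups only, no block, leaving out each replicate, and a stricter call.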

Additional observations from a re-analysis of the deposited data

Results flagged for a closer look

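A replicate stood apart from the other 4 of its group, by Dixon's test on log2 CPM, in 11 of 105 groups of 5 tested. In 8 of the 11 it was replicate 1. Chance gives about 1 in 20 for independent groups. The 105 groups came from 15 genes in the same libraries, so 1 deviating library can give several of the 11. At pH 7.4 with IL-2, replicate 1 had 71.0 CPM for Pfkl (others 182 to 251), 30.7 for Gys1 (52.0 to 64.5) and 203 for Hk1 (283 to 313). At pH 7 with IL-2 it had 65.8 CPM for Pfkl (127 to 139), 244 for Tpi1 (478 to 516), 1116 for Ldha (1627 to 1699) and 826 for Aldoa (1547 to 1702). At pH 6.6 without IL-2 it had 1.35 CPM for Ldhb (2.22 to 2.58). The other 3 were Pfkfb2 in replicate 5 at pH 7.4 with IL-2 (4.11 CPM, others 5.46 to 5.73), Rpia in replicate 5 at pH 7 without IL-2 (31.9, others 28.3 to 29.3) and Hk1 in replicate 3 at 0 h (246, others 315 to 332). The cause was not tested.

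The pH 6.6 effect differed with and without IL-2, by the interaction test, for 28 of the 35 genes (67% of all genes). The differences in log2 fold change in uptake and phosphorylation were -1.37 for Slc2a1, -0.64 for Hk1, -2.74 for Hk2 and -0.69 for Adpgk. Among isomerase, phosphofructokinases and regulators they were -0.53 for Gpi1, -1.74 for Pfkl, -1.58 for Pfkp, 1.39 for Pfkfb2 and 0.55 for Pfkfb4. From aldolase to pyruvate kinase they were -1.76 for Aldoa, -3.30 for Tpi1, -0.57 for Gapdh, -1.75 for Pgk1, -2.61 for Pgam1, 0.56 for Bpgm, -2.34 for Eno1, -0.52 for Eno3 and -2.64 for Pkm. Ldha gave -2.64. In the pentose phosphate pathway they were -1.22 for G6pdx, -1.27 for Pgd, -1.11 for Rpia, -1.90 for Tkt and -0.86 for Taldo1, and around glycogen -0.58 for Pgm2, -0.53 for Gys1, -0.52 for Gbe1 and -0.88 for Ugp2. Without replicate 1, 2 or 3 the call of Gapdh was lost (-0.50 to -0.37), and without 2, 4 or 5 that of Gys1 (-0.48 to -0.45).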

How the results depend on the processing

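No member called in the main comparisons changed its direction past the test under any alternative. Counting only the compared groups in a fit gave 22 members called for pH 7 with IL-2 (14 in the full fit), 4 for pH 7 without IL-2 (0) and 23 for IL-2 at pH 6.6 (12), of which 18 were higher and 5 lower. The share of all genes called rose too, to 35.1%, 7.32% and 42.9% from 19%, 1.68% and 23.7%. Requiring a log2 fold change of at least 1 as well left 16 at pH 6.6 with IL-2 (34.4% of all genes), 0 at pH 7 with IL-2 (1.47%), 3 at pH 6.6 without IL-2 (20.5%), 17, 15 and 1 for IL-2 at pH 7.4, 7 and 6.6 (40.9%, 35.6% and 3.73%), 16 for the difference of the acid effects (33.9%), and 7 and 17 against 0 h for pH 7.4 and pH 6.6 with IL-2 (15.1% and 22.7%). Leaving out each replicate gave 7 to 20 for pH 7 with IL-2 and 4 to 12 for IL-2 at pH 6.6. Scaling to the total count moved the member median to -0.084 for acid without IL-2, 0.22 for IL-2 at pH 6.6 and -0.46 for the difference, and leaving out replicates gave -0.021 to 0.088 for the first and -0.75 to -0.53 for the last. Without the replicate block no count of members called moved by over 1.5 times. The cause of these changes was not tested.

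With replicates paired by number, the sign-flip test of the paralog ratios gave differences of -2.26 (Hk2 to Hk1), -2.02 (Slc2a1 to Slc2a3), -2.15 (Ldha to Ldhb) and 1.14 (Pfkp to Pfkl) with IL-2 and -0.96, 0.63 and 1.01 for the last 3 without IL-2, each with exact p = 0.0625, the smallest that 5 pairs allow. In acid without IL-2, values near 0 that never passed the test changed sign for Slc2a3 (0.014 with RLE normalization, 0.014 with DESeq2), for Ldha (-0.00087 with total count scaling) and for Tpi1 (0.034 with RLE, 0.00049 without the replicate block, 0.033 with DESeq2, and -0.074 to 0.039 when 1 replicate was left out). Pfkp without IL-2 lost its call in 7 of 12 alternatives (0.08 to 0.24), and Pfkl at pH 7 with IL-2 in 7. Depth limits Hk2 and Pgam1 without IL-2, Pfkfb2 with IL-2, and Ldhb and Pfkfb4 in all groups, where group means were under 10 CPM, and reads that align to several places limit Pgk1, Pgam1, Eno1, Pkm and Gapdh.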

Other observations

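Pfkfb2 and Bpgm, whose products act on the regulatory metabolites fructose 2,6-bisphosphate and 2,3-bisphosphoglycerate, had their highest group mean at pH 7 without IL-2. Pfkfb2 had 18.3, 16.7, 16.8, 14.4 and 16.7 CPM there, which overlapped with pH 7.4 without IL-2 (16.7, 12.8, 16.5, 14.5 and 17.1). Bpgm had 21.9, 25.4, 27.2, 21.4 and 28.4 CPM there, 22, 18.8, 18, 19.4 and 19.6 at pH 7.4 without IL-2, again with overlap, 11.4, 10.6, 11.7, 12.4 and 11.6 at pH 6.6 without IL-2 and 7.12, 10.7, 8.98, 5.98 and 6.6 at 0 h. Neither gene passed the test for pH 7 against pH 7.4 without IL-2. All 5 pH 7 libraries were above all libraries at 0 h and at pH 6.6 without IL-2 for both genes. Pfkfb3 had its highest mean at pH 6.6 without IL-2, with 86, 112, 131, 106 and 116 CPM, against 61.2, 76.6, 75.1, 68.6 and 76.6 at pH 7.4 without IL-2. These 2 groups did not overlap.

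Gpi1 had 791, 801, 792, 776 and 916 CPM at pH 7.4 and 1222, 1125, 1182, 1501 and 1445 at pH 6.6 without IL-2, and 607, 994, 1039.9, 1204 and 1443 and 1081, 1092, 1014, 1266 and 1228 with IL-2. Per kilobase of exon, only Aldoa had a higher mean of the 35 at pH 6.6 with IL-2.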
